A study of Mus musculus with 24 samples.

Results

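Bmal1 (Arntl), Bmal2 (Arntl2), Npas2 and Clock encode the activators at the head of the circadian transcription loop, and their rows, taken by symbol, are 4 of the 33079 genes in the deposited table. BMAL1 or its paralog BMAL2 pairs with CLOCK or NPAS2, and the pair binds E-boxes and switches on the Per and Cry repressors as well as Nr1d1 (Rev-erbα) and Nr1d2 (Rev-erbβ). The REV-ERB proteins are nuclear receptors that recruit corepressors to ROR response elements, with Bmal1 as their best known target, while RORs activate through the same elements. REV-ERB levels cycle, so a gene that they repress is commonly lowest some hours after the REV-ERB peak.

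The control cells (WT) were differentiated mouse embryonic stem cells with a Per2::Luciferase knock-in, and the KO cells carried the same knock-in together with deletions in Rev-erbα and Rev-erbβ made with CRISPR/Cas9. Rev-erbα was targeted in cells grown from picked colonies that already lacked Rev-erbβ, and the genotype and the history of the picked line cannot be told apart. Both were cultured from embryoid bodies to differentiation day 28, given 100 nM dexamethasone, a glucocorticoid that sets cellular clocks in step, and frozen every 4 h from 12 to 56 h. RNA of 3 embryoid bodies was pooled for each of the 24 libraries, 12 of WT and 12 of KO, with 1 library per genotype and hour and hence no replicate of any single hour. Values are RPKM, reads scaled to the exonic length of the gene and to the reads of the library, and each library holds from 6183500.5 to 10287969 fragments on exons, in which the table counts in steps of 0.5. The table counts whole genes, so it cannot show the exon deletions, and in these values each genotype rests on its label. The authors checked the deletions by sequencing genomic DNA and cDNA, and their quantitative PCR did not detect RNA with the targeted exons.

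The pair of members that moved most alike over the WT libraries (r = 0.882, against 0.178 in KO) lie on chromosomes 7 and 1 (GRCm38). Bmal1 spans chr7:113207465-113314126 on the plus strand and Npas2 spans chr1:39194272-39363240 on the plus strand, and the exons of both, with their untranslated parts, are summed in the values. Their RefSeq promoter windows (GRCm38.p6) are shown because REV-ERBs act through the short elements that such windows can hold. The windows of 300 bases run 5′ to 3′ on the plus strand, at chr7:113207261-113207560 for Bmal1 and at chr1:39194022-39194321 for Npas2, and capitals mark matches to any of 3 motifs searched on both strands.

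Bmal1: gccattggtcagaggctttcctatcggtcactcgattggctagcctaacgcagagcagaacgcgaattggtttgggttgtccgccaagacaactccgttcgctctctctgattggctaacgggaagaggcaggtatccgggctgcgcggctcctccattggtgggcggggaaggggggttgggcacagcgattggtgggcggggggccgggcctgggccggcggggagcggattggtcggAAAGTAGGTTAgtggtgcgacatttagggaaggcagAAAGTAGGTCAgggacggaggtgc

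Npas2: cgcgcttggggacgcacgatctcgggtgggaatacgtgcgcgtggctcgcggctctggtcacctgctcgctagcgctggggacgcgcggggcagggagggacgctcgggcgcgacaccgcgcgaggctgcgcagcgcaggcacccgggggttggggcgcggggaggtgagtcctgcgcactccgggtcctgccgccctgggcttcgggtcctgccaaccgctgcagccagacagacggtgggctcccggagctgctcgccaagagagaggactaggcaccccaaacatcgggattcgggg

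The motifs were AGGTCA, the half-site of many nuclear receptors, AAAGTAGGTNA, which was written from the Bmal1 window after it was seen, and CACGTG, the canonical E-box. The Bmal1 window shown belongs to a RefSeq start site at chr7:113207511, which lies 46 bases downstream of the start of the span above. With that site counted as 0, the window holds AAAGTAGGTTA at bases -10 to 0 and AAAGTAGGTCA at bases 26 to 36. The last 6 letters of the latter are also its match to AGGTCA. Another Bmal1 window, at chr7:113207215-113207514, holds AAAGTAGGTTA alone. Of 32851 RefSeq windows of this length, 20 (0.0609%) hold AAAGTAGGTNA, the Bmal1 windows among them, and Bmal1 has the 1 window (0.00304%) with at least 2 copies. The motif was written from those 2 copies, so its presence there was fixed in advance. These shares are therefore no measure of how unusual the Bmal1 window is. AGGTCA stands in 16.3% and CACGTG in 7.15% of all windows. The Npas2 window and the Bmal2 window at chr6:146805280-146805579 hold none of the 3 motifs, and of 3 Clock windows 1, at chr5:76303453-76303752, holds AGGTCA in the direction opposite to the gene. A match describes letters in the window, and a missing match says nothing about binding elsewhere in the gene. The 19 genes with AAAGTAGGTNA in a window include 8 that were tested. Of these Bmal1, from which the motif was written, was higher in KO, and 2, Klhdc8b and Tspan12, were lower. Over all 15112 genes tested 11.5% were higher and 14.7% were lower, and no difference from those shares was tested. The names of the 2 lower genes were chosen after their values were seen.

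Over the 12 hours Npas2, Bmal1 and Bmal2 were higher in KO, and Clock did not pass the test. These 3 of 4 genes compare with 11.5% of the 15112 genes tested that were higher in KO and 14.7% that were lower, in limma on log2(RPKM + 0.1) with Benjamini-Hochberg adjustment over all of them and a threshold of 0.05. In these bulk cultures a change in the share of the cells that use a gene and a change in its RNA per cell cannot be told apart.

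Npas2 encodes a PAS-domain partner of BMAL1 that is a close relative of CLOCK. In WT it ran from 2.16 RPKM at 52 h over a median of 2.79 to 3.43 RPKM at 12 h. In KO it ran from 3.68 RPKM at 20 h over a median of 4.42 to 4.90 RPKM at 32 h. The lowest KO library thus lay above the highest WT library, a separation found for 0.199% of all genes tested. The difference was 0.62 ± 0.073 (log2, SE, limma adjusted p = 1.45e-06), and a two-sided permutation test of mean RPKM gave p = 2e-05, unadjusted, the smallest possible with the permutations drawn.

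Bmal1, the common partner of CLOCK and NPAS2, had from 2.89 RPKM at 28 h to 4.64 RPKM at 12 h in WT, with a median of 3.48. In KO it had from 4.18 RPKM at 28 h to 5.61 RPKM at 12 h, with a median of 4.62. The groups overlapped, since 6 of 12 KO libraries lay above the highest WT library, while hour by hour KO exceeded WT in 12 of 12 comparisons, as it did for Npas2. Such an excess at every hour was found for 2.65% of the genes tested. The log2 difference of 0.41 ± 0.068 had an adjusted p of 0.0001 in limma. In both genotypes the 12 h library was the highest of the 12.

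Bmal2 is the less abundant paralog of Bmal1 and lies at chr6:146805530-146833529 on the plus strand. It had from 0.233 RPKM at 28 h to 0.455 RPKM at 36 h in WT, with a median of 0.318, and from 0.355 RPKM at 52 h to 0.847 RPKM at 36 h in KO, with a median of 0.533. KO exceeded WT at 11 of the 12 hours, and 7 KO libraries lay above the highest WT library. The log2 difference was 0.52 ± 0.11 (limma adjusted p = 0.00139). At so low a level its size depends on the pseudocount, with 0.193 at a pseudocount of 1, below the 0.336 of Bmal1, and 0.626 at 0.01. These levels rest on few reads, with means of 15.7 (WT) and 24.6 (KO) fragments a library, which is a counting error of 25.3% and 20.2% for a single library, against 7.42% and 6.50% for Bmal1. Over the second day alone (36 to 56 h) the difference was 0.44 and did not pass the test (limma adjusted p = 0.102), whereas over the first day alone it did.

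Clock, at chr5:76209868-76304548 on the minus strand, encodes the usual partner of BMAL1. It stayed between 2.23 RPKM at 20 h and 2.79 RPKM at 36 h in WT (median 2.57) and between 2.03 RPKM at 24 h and 2.66 RPKM at 32 h in KO (median 2.42). The ranges of the genotypes overlapped from 2.23 to 2.66 RPKM, and KO was the higher at 3 of the 12 hours. Its log2 difference was -0.09, with a 95% interval from -0.19 to 0.01 (limma adjusted p = 0.183). That interval leaves out the differences measured for Npas2, Bmal1 and Bmal2, although a small fall is within it. Clock had the deepest counts of the 4 genes, with means of 431.6 (WT) and 403.9 (KO) fragments a library.

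**Figure D1:**
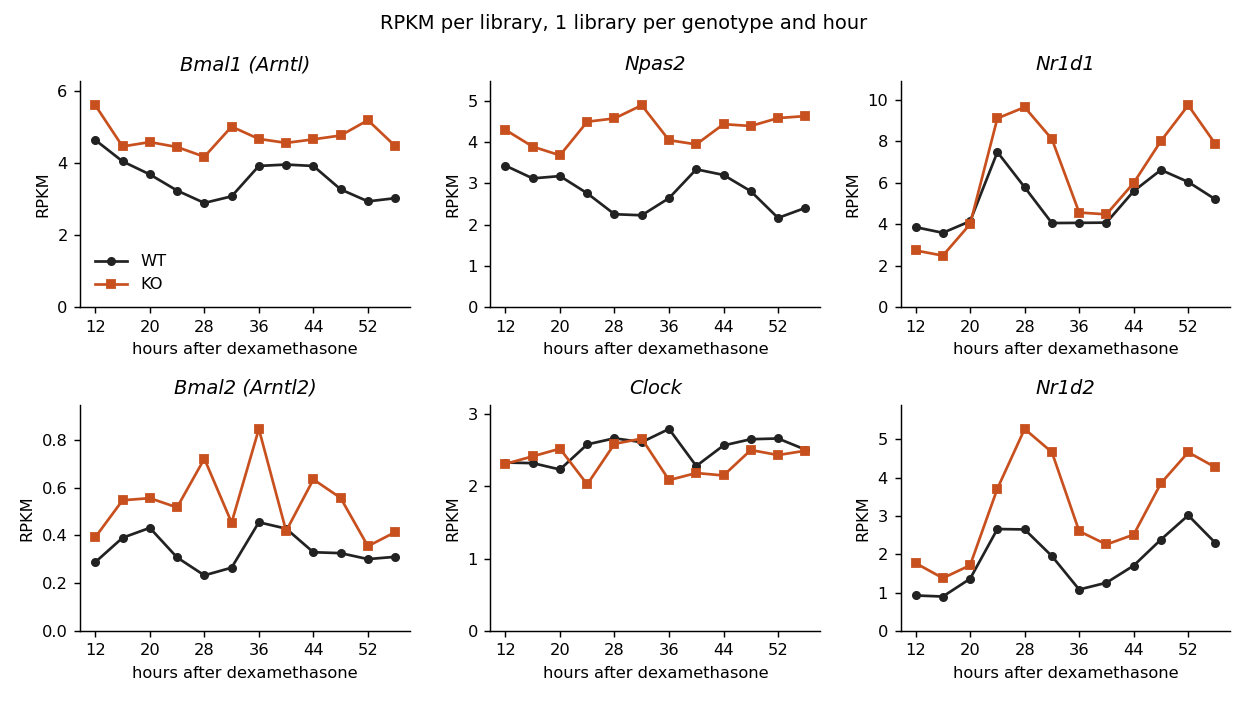
RPKM of the 4 activator genes and of Nr1d1 and Nr1d2 in each of 24 libraries against hours after dexamethasone, with WT as black circles and KO as orange squares. All 12 Npas2 values of KO lie above the highest WT value of 3.43 RPKM, whereas the Clock curves cross.

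RPKM is scaled to 1 annotated exonic length per gene, which is 9764 bases for Clock, 4159 for Npas2, 2888 for Bmal1 and 2608 for Bmal2. The order of the genes below depends on those lengths, and the transcripts used in these cells were not examined. In WT, Bmal1 was above Npas2 in 12 of 12 libraries (means of 3.55 and 2.80 RPKM), while Npas2 was above Clock in 7 of 12, so the order of those neighbours was not settled by the spread. Clock exceeded Bmal2 in 12 of 12 libraries, by 7.43 times in the mean. In KO, Bmal1 was above Npas2 in 9 of 12 libraries, and Npas2 was above Clock in 12 of 12, with a ratio of the means of 1.83. The Npas2 share of the summed RPKM of Npas2 and Clock, the alternative partners of BMAL1, ran from 44.8% at 52 h to 59.6% at 12 h in WT (mean 52.3% ± 5.59, SD, n = 12). In KO it ran from 59.4% at 20 h to 68.9% at 24 h (mean 64.6% ± 2.46, SD, n = 12). The share restates the separation of the Npas2 levels, so its two-sided permutation test (p = 2e-05, unadjusted) adds no separate result. It is a share of RNA, not of protein or of paired protein.

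The measured excess in KO varied from hour to hour, with 1 library per genotype and hour. The test of the daily course, given below, passed for Npas2 alone and close to its threshold. For Npas2 the ratio of KO to WT was smallest on the first day at 20 h (1.16) and on the second at 40 h (1.18). It reached 2.03 at 28 h, 2.20 at 32 h, 2.12 at 52 h and 1.93 at 56 h. For Bmal1 the ratio was 1.10 at 16 h and 1.15 at 40 h, and 1.63 at 32 h and 1.77 at 52 h. For both genes 28 and 32 h had the largest ratios of the first day and 52 and 56 h those of the second, and these 4 hours were the lowest of WT for each gene. They were also the 4 highest hours of Npas2 in KO, whereas Bmal1 in KO had its lowest value at 28 h. WT is the denominator of the ratio, so a low WT level raises it by itself. For Npas2, the 28 h and 52 h libraries averaged 2.21 RPKM in WT and 4.58 RPKM in KO, whereas the 16 h and 40 h libraries averaged 3.23 and 3.92 RPKM.

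For Bmal2 the ratio of the means over both days was likewise largest at 28 and 52 h (2.02, against 2.07 for Npas2 and 1.61 for Bmal1) and smallest at 16 and 40 h (1.18, against 1.21 and 1.13). The days themselves differed more, with ratios of 3.10 at 28 h and 1.18 at 52 h, and of 1.40 at 16 h and 0.977 at 40 h, in libraries of 9 to 37 fragments. For Clock the ratios lay between 0.747 at 36 h and 1.13 at 20 h.

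**Figure D2:**
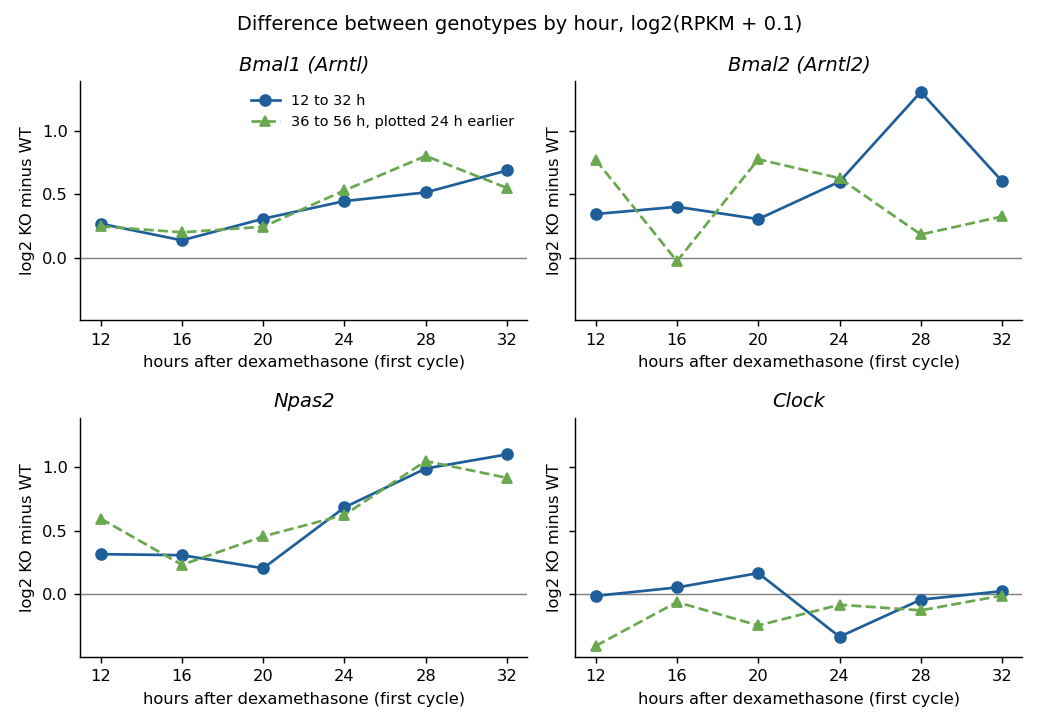
Difference between KO and WT in log2(RPKM + 0.1) for each gene and hour, with the second day (triangles) drawn 24 h earlier over the first (circles). For Npas2 both days rise to about the same height at 28 h, where the ratios of KO to WT were 2.03 and 2.12, and for Bmal2 they were 3.10 and 1.18.

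Whether the genotypes differ in their daily course was asked of a limma model of all 24 libraries with a 24 h cosine and sine per genotype, by a moderated F test over both terms. In WT, Npas2 had a log2 amplitude of 0.28 ± 0.043 (SE) with a fitted peak at 17.3 ± 0.56 h after dexamethasone and again 24 h later (adjusted p = 0.0174), among 0.0529% of genes that passed. In KO its amplitude was 0.14 ± 0.043 with a peak at 5.16 ± 1.2 h (adjusted p = 0.493), where 0.0860% of genes passed. The difference between the curves was the only one of 15112 to pass (0.00662%), with an amplitude of 0.42 ± 0.058 and its crest, the hour of greatest excess in KO, at 5.29 ± 0.53 h, which within the sampled hours is 29.3 h and again 24 h later (adjusted p = 0.0333, unadjusted p = 2.2e-06).

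That call sat close to the threshold. Without both libraries of 1 hour, it held when 12 h (adjusted p = 0.00207) or 44 h (0.0412) was left out and was lost for each of the other 10 hours, with adjusted p from 0.0526 without 36 h to 0.374 without 52 h. Unadjusted, the p of these fits stayed between 1.37e-07 and 2.47e-05. The adjusted p was 0.276 with the time point as a replicate block, 0.286 with a trend for each genotype and 0.922 with a period of 22 h. The WT rhythm of Npas2 was likewise lost when any of 7 hours was left out (24, 28, 32, 40, 44, 52 or 56 h), with adjusted p up to 0.199 without 28 h.

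Bmal1 followed the same course in WT without passing. Its log2 amplitude was 0.25 ± 0.047 and its peak at 15.7 ± 0.69 h (adjusted p = 0.130, unadjusted p = 0.000136), and without the 12 h libraries it passed (adjusted p = 0.0136). In KO the amplitude was 0.05 ± 0.045 (adjusted p = 0.910). The difference between the Bmal1 curves, 0.26 ± 0.064 with its crest at 4.48 ± 0.93 h, had an adjusted p of 0.758 and an unadjusted p of 0.00218. Bmal2 in WT had the same fitted amplitude as Bmal1, 0.25, but with an SE of 0.12, and its peak at 16.7 ± 1.7 h was within 1 SE of that of Bmal1 and of Npas2 (adjusted p = 0.601). The amplitude of Clock was 0.09 ± 0.049 in WT and 0.07 ± 0.048 in KO, and its adjusted p was at least 0.669 in both.

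Nr1d1 and Nr1d2 are the genes whose products were removed, and their remaining transcripts were still measured in KO. Nr1d1 ran from 3.58 RPKM at 16 h to 7.48 RPKM at 24 h in WT and from 2.48 RPKM at 16 h to 9.74 RPKM at 52 h in KO. Its fitted WT peak was at 0.99 ± 0.91 h and its KO peak at 3.19 ± 0.42 h, while Nr1d2 peaked at 2.68 ± 0.39 h (WT) and 4.43 ± 0.37 h (KO), all also 24 h later. The WT rhythm of Nr1d1 did not pass (adjusted p = 0.334), while the other 3 did (adjusted p from 8.46e-05 to 0.000434).

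The relation to the Nr1d1 profile was examined over the 12 hours of a genotype, in 60 relations of the 4 genes to Nr1d1 or Nr1d2 at the same hour or earlier, with Benjamini-Hochberg adjustment over the 60 beside a permutation p. Successive hours depend on each other, so these p-values are too small, and any genes that cycle in opposite phase give a negative r. Against Nr1d1 of the same hour the r in WT was -0.624 for Bmal1 (permutation p = 0.0329, adjusted p = 0.104, rho = -0.643, rho p = 0.0271, n = 12) and -0.375 for Npas2 (permutation p = 0.226, adjusted p = 0.424, rho = -0.322, rho p = 0.309). Against Nr1d1 of 4 h before it was -0.887 for Bmal1 (permutation p = 0.00177, adjusted p = 0.0146, rho = -0.891, rho p = 0.00054, n = 11), and -0.824 without the 2 hours farthest from the median of Nr1d1. For Npas2 it was -0.860 (permutation p = 0.00194, adjusted p = 0.0146, rho = -0.745, rho p = 0.0117) and -0.778 without those hours. For Bmal2 it was -0.822 (permutation p = 0.00268, adjusted p = 0.0179, rho = -0.891, rho p = 0.00059) and -0.731 without them. In WT all 3 genes were thus lower 4 h after the higher Nr1d1 levels. Against Nr1d1 of 8 h before (n = 10) none passed after adjustment. There r was -0.344 for Bmal1 (permutation p = 0.311, adjusted p = 0.493) and -0.198 for Bmal2 (permutation p = 0.579, adjusted p = 0.724). For Npas2 it was -0.662 (permutation p = 0.0383, adjusted p = 0.107).

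The WT Nr1d1 levels fell on both sides of a gap, with 6 libraries at 3.58 to 4.14 RPKM and 6 at 5.20 to 7.48 RPKM, and within a side no r passed its test. For Bmal1 and Nr1d1 of the same hour r was -0.436 in the lower 6 (exact permutation p = 0.328) and 0.024 in the upper 6 (exact permutation p = 0.886). With Nr1d1 of 4 h before it was -0.142 in the lower 6 for Bmal1 (exact permutation p = 0.953), -0.350 for Npas2 (exact p = 0.556) and -0.451 for Bmal2 (exact p = 0.381), and the upper side held 5 hours, too few for a value. In the limma regression over the 12 WT hours the slope on Nr1d1, in log2 per log2, was -0.39 ± 0.14 for Bmal1 (adjusted p = 0.330), -0.30 ± 0.21 for Bmal2 (0.568), -0.25 ± 0.18 for Npas2 (0.587) and 0.16 ± 0.093 for Clock (0.497). On Nr1d1 of 4 h before, the slopes were -0.458 ± 0.0885 for Bmal1 (adjusted p = 0.459, unadjusted p = 0.000216), -0.541 ± 0.170 for Bmal2 (0.479, unadjusted 0.00758) and -0.533 ± 0.110 for Npas2 (0.459, unadjusted 0.000372). None of the 4 genes passed over all genes at either lag, and with Nr1d1 of 4 h before 0 genes passed. At the same hour 0.00662% of genes passed, namely AK053029, which overlaps Nr1d1 on the other strand and may share its reads. With an unadjusted p under 0.05, limma called 12.4% of genes against WT Nr1d1 of the same hour, 8.99% with a negative slope. No such share was computed for Nr1d1 of 4 h before.

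The WT Nr1d2 levels also had a step, from 1.36 to 1.70 RPKM, and no r was computed within its sides. Over all WT hours the r of Bmal1 with Nr1d2 of the same hour was -0.911 (permutation p = 9e-05, adjusted p = 0.0051, rho = -0.888, rho p = 0.00026, n = 12), and -0.879 without the 2 hours farthest from the median of Nr1d2. For Npas2 it was -0.719 (permutation p = 0.0118, adjusted p = 0.0442, rho = -0.657, rho p = 0.0237) and -0.622 without those hours. For Npas2 set against Nr1d2 of 4 h before it was -0.920 (permutation p = 0.00033, adjusted p = 0.0066, rho = -0.827, rho p = 0.00257, n = 11), again -0.920 without the 2 farthest. Bmal2 gave -0.609 at the same hour (permutation p = 0.0388, adjusted p = 0.107, rho = -0.524, rho p = 0.0835), and -0.839 without the 2 farthest. Clock went the other way, at 0.567 (permutation p = 0.0559, adjusted p = 0.140, rho = 0.510, rho p = 0.0934). Adjusted over all genes, the limma slopes on Nr1d2 did not pass for any of the 4 genes.

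In KO no relation of Bmal1 passed, and that of Npas2 was positive, although the change in r between the genotypes was not itself tested. The r of Bmal1 with Nr1d2 of the same hour was -0.121 (permutation p = 0.714, rho = 0.007, rho p = 0.991), and with Nr1d1 it was -0.220 (permutation p = 0.498, rho = -0.049, rho p = 0.886). Npas2 rose and fell with the transcripts left in KO, at r = 0.839 with Nr1d2 (permutation p = 0.0007, adjusted p = 0.0105, rho = 0.881, rho p = 0.00033) and 0.750 with Nr1d1 (permutation p = 0.0057, adjusted p = 0.0296, rho = 0.797, rho p = 0.00316). Without the 2 farthest hours these were 0.744 and 0.877. The KO levels had gaps as well, among them 2.73 to 4.00 RPKM and 5.99 to 7.87 RPKM for Nr1d1. For Nr1d2 1 lay from 2.60 to 3.72 RPKM, and no value was computed within the sides of any of them. In limma the slope of Npas2 on Nr1d1 in KO was 0.13 ± 0.040 (adjusted p = 0.153), and 0.0132% of genes passed that test, Nr1d2 and AK053029. With an unadjusted p under 0.05, limma called 15.9% of genes against KO Nr1d1. The difference between KO and WT had slopes on WT Nr1d1 of 0.43 ± 0.26 for Npas2 and 0.32 ± 0.16 for Bmal1, with adjusted p of 0.917 and 0.916. With Nr1d1 of 4 h before, they were 0.799 ± 0.178 (adjusted p = 0.707, unadjusted p = 0.000805) and 0.488 ± 0.126 (0.707, unadjusted 0.00234). At the same hour 0% of genes passed (0 of 15111). At an unadjusted p under 0.05 limma called 798 of them (5.28%), a share that was not computed at 4 h. That difference holds the WT level of the gene itself, so it is not separate from the WT relation.

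**Figure D3:**
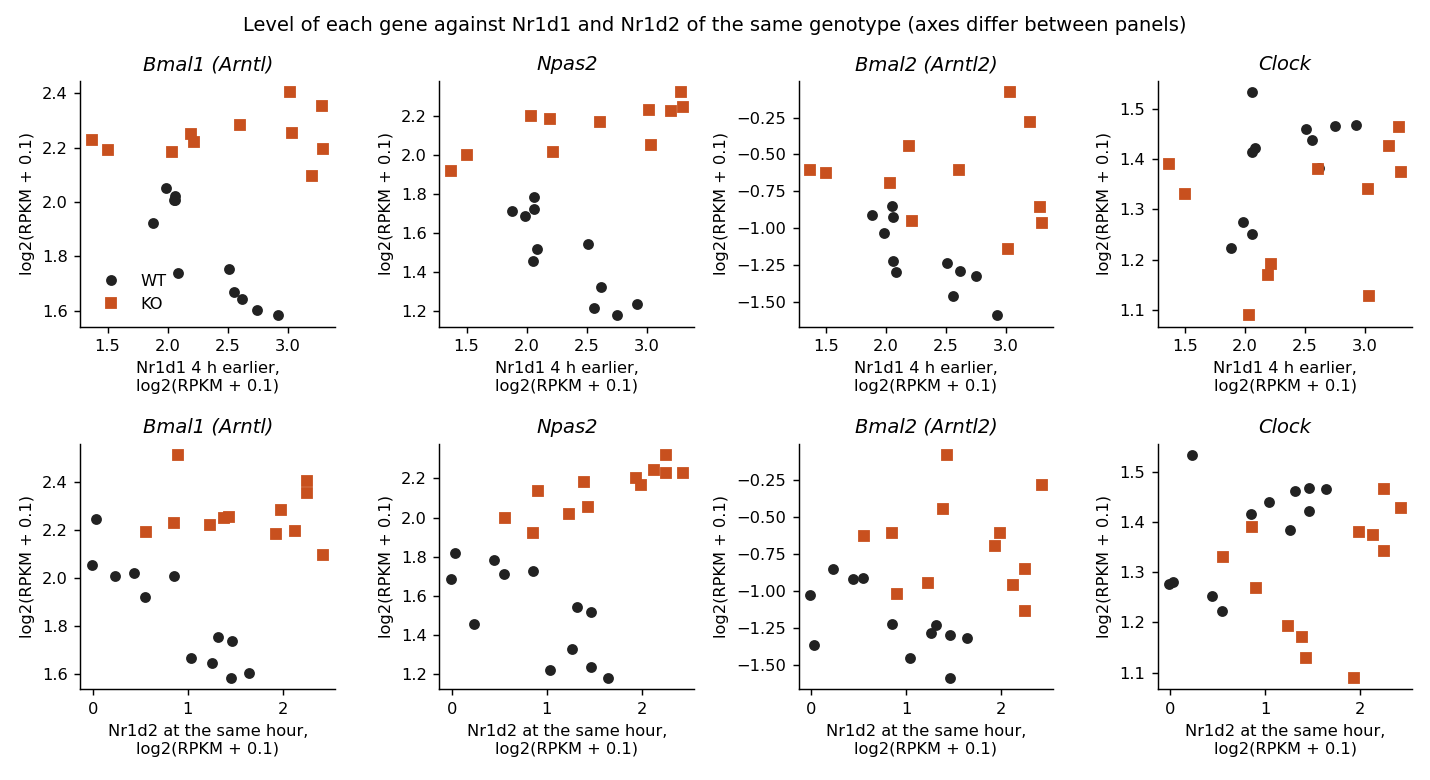
Level of each gene against Nr1d1 of the same genotype 4 h earlier (upper row, 11 hours) and against Nr1d2 at the same hour (lower row, 12 hours), all as log2(RPKM + 0.1), with WT as black circles and KO as orange squares. WT Bmal1 falls as Nr1d2 rises (r = -0.911) and KO Bmal1 does not (r = -0.121), and the WT Nr1d1 points lie on both sides of a gap.

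The members were also compared with each other and with all genes. In WT the r between Bmal1 and Npas2 over 12 libraries was 0.882 and in KO 0.178, and that between Npas2 and Clock was -0.712 in WT and 0.245 in KO, given as descriptions over libraries that share hours. Among 12043 genes with a mean of at least 1 RPKM, the profile most like Bmal1 over the 24 libraries was that of Npas2 (r = 0.905). Next came Cd302 (0.886), a C-type lectin receptor gene, and Tspan9 (0.827), a tetraspanin gene. For Npas2 the order was Bmal1, Cd302 (0.874) and Ldhd (0.853), a D-lactate dehydrogenase gene. Cd302 averaged 2.82 RPKM in WT and 4.38 RPKM in KO, and Ldhd 0.643 and 1.44 RPKM, so part of the likeness is the step between genotypes. The profiles most like Bmal2 were those of Mrpl17 (0.810), Glrx3 (0.794) and 2010107E04Rik (0.792). Clock was closest to Phc3 (0.924), Cpeb4 (0.899) and Spag9 (0.879), and Phc3 averaged 2.94 RPKM in WT and 2.73 RPKM in KO.

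The rest of the loop gives the setting. Of 17 genes for the other limbs of the clock loop, 16 were tested and 4 were higher in KO, beside 11.5% of all genes tested. Their median log2 difference was 0.138, against -0.0127 over all genes tested. The 4 that were higher were Bhlhe40 (14.2 to 17.5 RPKM), a bHLH repressor that competes at E-boxes, Nfil3 (13.9 to 16.1), which represses D-box genes, Nr1d2 (1.85 to 3.22) and Ciart (0.698 to 0.939), a repressor of CLOCK and BMAL1. Rora, an activator at ROR elements, had 1.34 and 1.36 RPKM (adjusted p = 0.791).

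Among 15 other genes of the bHLH-PAS family or of PAS-containing coactivators, 13 were tested, 1 was higher and 7 were lower in KO, with a median log2 difference of -0.129. The shares over all genes tested were 11.5% higher and 14.7% lower. The 1 that rose was Hif1a (29.6 to 32.5 RPKM), the oxygen-regulated subunit. Those that fell were Sim2 (0.476 to 0.262 RPKM), Hif3a (11.6 to 9.84), Arnt2 (1.62 to 1.06), Npas3 (0.239 to 0.132), Npas4 (0.727 to 0.492), Ahr (5.39 to 4.78) and Ncoa2 (4.12 to 3.80). Arnt, the general partner of the family, had 12.7 and 12.4 RPKM (adjusted p = 0.334). Higher levels in KO were thus not shared by the family at large.

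**Figure D4:**
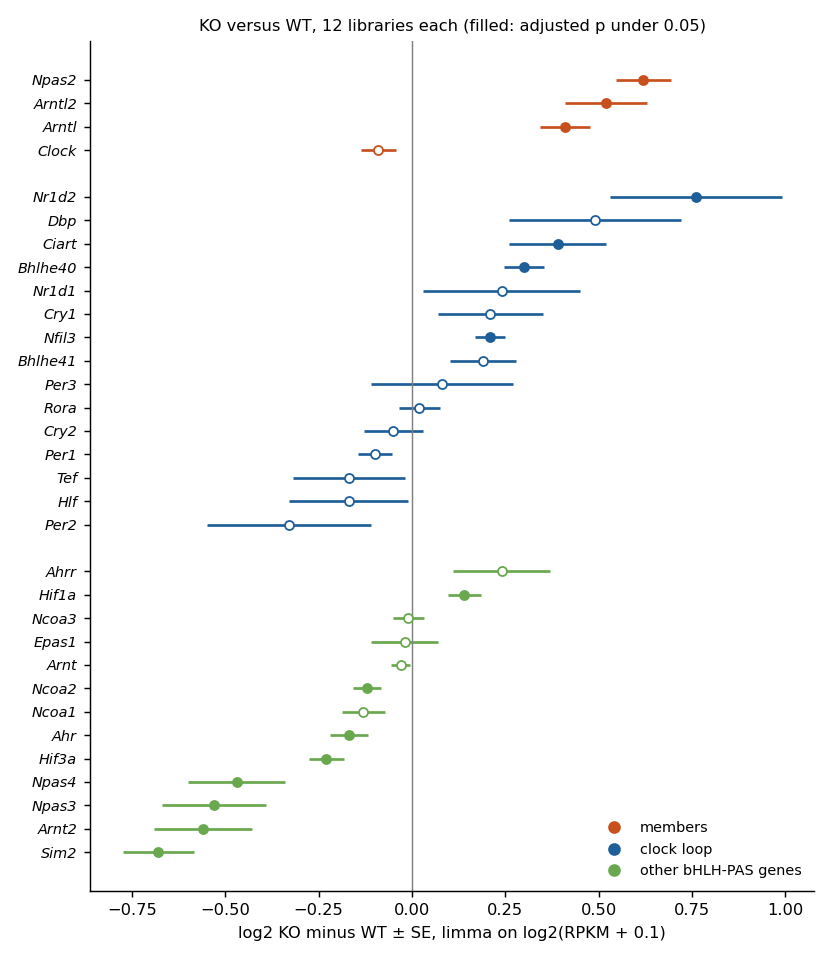
Log2 difference between KO and WT with its SE from limma on log2(RPKM + 0.1), 12 libraries a genotype, for the 4 activator genes (orange), 15 other clock loop genes (blue) and 13 other bHLH-PAS genes (green), with filled points for adjusted p under 0.05. Npas2, Arntl2 and Arntl lie at 0.62, 0.52 and 0.41, and 7 of the 13 bHLH-PAS genes are filled on the lower side.

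Some marker lists of other cells moved with the genotype, and their part in these results was not tested. Their counts stand beside 11.5% of all genes tested that were higher and 14.7% that were lower in KO. Of 7 neuronal markers tested 4 were lower in KO and 0 were higher, and their summed level was 3.79 to 34.8 RPKM in WT and 2.20 to 11.9 RPKM in KO, with the defining marker Rbfox3 too low to be tested. Npas3, Npas4 and Arnt2, of the list above, are best known from neurons. Epithelial markers were higher for 4 of 4 genes (145 to 277 and 257 to 429 RPKM summed), smooth muscle markers for 3 of 4 (233 to 323 and 246 to 361) and macrophage markers for 2 of 4 (142 to 168 and 151 to 178). Cardiac muscle markers had 3 higher and 1 lower of 4 (38.6 to 64.8 and 39.9 to 73.5), and endothelial markers 1 higher of 4 (5.11 to 18.0 and 8.68 to 16.1). Liver and yolk sac markers ran from 76.9 to 1010 RPKM over the WT libraries and from 80.5 to 1010 over the KO libraries, and 0 of 4 passed. Of 5 pluripotency markers 2 were tested and 0 passed (0.193 to 5.54 and 0.132 to 3.31), with Nanog, Zfp42 and Dppa3 too low to be tested.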

How the data were processed

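Polyadenylated RNA of 24 libraries (12 WT, 12 KO) was sequenced as 101-bp paired-end reads. Per the labels the authors used Trimmomatic 0.36, STAR 2.5.4b, SAMtools and HOMER with GRCm38. They dropped alignments of mapping quality below 10, counted reads on the exons of UCSC known genes and deposited RPKM with the exonic length of each gene. The use of strand is not given in the sources used here. The values are not counts, so no count test was run. The product of RPKM, length and library total came to multiples of 0.5 fragment (tolerance 0.001), which served for counting error alone.

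Genes with a mean over 0.5 RPM in WT or KO (15112) were tested with limma 3.58.1 (R 4.3.3, eBayes with trend) on log2(RPKM + 0.1), which understates fold changes of low genes. One fit compared KO with WT, another held the genotype, a linear trend and a 24 h cosine and sine per genotype, and the last regressed each gene on Nr1d1 over 12 hours. The fits were tested on simulated data. Single genes were also compared by permutation (100000, two-sided) in Python 3.11.15 with scipy 1.17.1. P-values measure the spread over hours of 1 culture series per genotype. Named are the 4 activators, Nr1d1 and Nr1d2, genes of the clock loop and bHLH-PAS lists that passed (at most 8 each), and the 3 genes most like each activator. A few others were named after their values were seen, as were Rora and Arnt. The Npas2 share and the sides of the Nr1d1 gap were also chosen after the data were seen. The members and lists were chosen with earlier results of these data known. Of the clock loop list 1 gene is counted among those tested but not reported here. Time points were not treated as pairs in the main fits of KO against WT and of rhythm, and the time point as a replicate block was an alternative.

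Alternatives covered the pseudocount, filter, scaling, replicate block, trend, period, lag, hours left out, and a Kendall test against cosines as in JTK_CYCLE (20 to 28 h, ties kept). Promoter windows are from RefSeq, where all 4 symbols matched. Bmal1 overlaps the noncoding row A630005I04Rik, which averaged 0.0120 RPKM in WT.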

Additional observations from a re-analysis of the deposited data

Results flagged for a closer look

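The daily course of Npas2 differed between KO and WT in the test of the difference itself (limma moderated F test over 24 h cosine and sine terms, adjusted p = 0.0333). WT fell from 3.34 RPKM at 40 h to 2.16 RPKM at 52 h, while KO went from 3.95 RPKM to 4.59 RPKM over the same hours, and on the first day WT fell from 3.12 RPKM at 16 h to 2.23 RPKM at 32 h while KO went from 3.89 RPKM to 4.90 RPKM. The adjusted p was lost in 10 of 12 fits that left out both libraries of 1 hour. No other of the 4 genes passed this test, with adjusted p of 0.758 for Bmal1, 0.981 for Bmal2 and 0.999 for Clock.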

How the results depend on the processing

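Leaving out both libraries of each hour in turn was chosen after seeing the data, and the other alternatives before. KO against WT kept its direction for the 4 genes under all alternatives run, and its side of the threshold except for Bmal2 on the second day alone (log2 0.442, limma adjusted p = 0.102). The 3970 genes called became 1331 on the first day alone and 2072 on the second, with fewer libraries. With the time point as a replicate block 4374 were called, and the block changed a call of the 4 genes only for the rhythm difference of Npas2 (adjusted p = 0.276). Over the 12 pairs of same-hour libraries the correlation of deviations had a mean of 0.147 (range -0.150 to 0.300), and 8 were over 0.1.

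For the WT rhythm of Npas2 the adjusted p was 0.0547 with quantile normalization, 0.0547 with 1 trend per genotype, 0.238 at 22 h and 1 in the JTK-type test (unadjusted p = 0.0573), and 0.00195 to 0.199 with hours left out. For its difference from KO it was 0.0594 with quantile normalization, 0.286 with 1 trend per genotype, 0.922 at 22 h and 0.00207 to 0.374 with hours left out. The WT rhythm of Bmal1 passed without 12 h (0.0136), and had 0.0136 to 0.478 with hours left out. The cause of these changes was not tested.

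Slopes that did not pass changed sign in 8 fits. For Bmal1 in KO the slope was 0.0282 on Nr1d1 4 h earlier, 0.0472 on Nr1d1 8 h earlier and 0.0259 without 12 h. For Bmal2 it was 0.0345 in KO with quantile normalization and -0.106 for the difference at 8 h. For the Clock difference it was 0.0605 at 4 h, 0.0459 at 8 h and 0.0118 on WT Nr1d1 of the library 24 h away. Bmal2 has no value under the filter at 1 RPKM. Depth limits Bmal2 most, and 1 library per hour leaves no test of a single hour.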
